A study of Rattus norvegicus with 98 samples.

Results

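The medial septum (MS) lists of H3K27ac peaks were compared between rats given fluoxetine and rats given vehicle. The members were the 4 libraries whose titles name MS, that is Sham and FT with replicates 1 and 2 of each, out of 94 libraries in the series. Histone H3 acetylated at lysine 27 (H3K27ac) marks active promoters and enhancers, and chromatin immunoprecipitation with sequencing (ChIP-seq) finds the stretches of the genome that carry it as peaks of reads. All rats were male Long-Evans animals of 2 months at the start. The FT group drank fluoxetine, a selective serotonin reuptake inhibitor, at 18 mg per kg body weight for 6 weeks, and the Sham group drank water without the drug. Tissue of several animals was punched from frozen brain sections and pooled for each library, so that a library averaged its animals and the neurons and glia of the punch. The same antibody lot was used in both groups. Within a treatment, libraries of different regions drew on a common set of animals, and whether equal replicate numbers mean the same pool is not stated.

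The medial septum is a basal forebrain nucleus that holds cholinergic, GABAergic and glutamatergic neurons. Its cholinergic and GABAergic cells project to the hippocampus, where they pace the theta rhythm, and the nucleus receives serotonergic fibres from the raphe. An acetylated stretch can gain or lose the mark as a whole, or its acetylated zone can become wider or narrower around an unchanged core. Peak lists can show either kind of difference as a change in where peaks lie. In pooled tissue, a change in the number of cells that carry the mark and a change in the mark within those cells cannot be told apart.

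The deposited lists gave a position, a width, the highest filter score within the peak (maxScore), a −log10 p-value and a normalised tag count (Norm-tag-count) for each peak. The lists hold no read numbers. The depth of these libraries is therefore unknown, and how far depth or enrichment differed between them was not tested. An Rn5 annotation was not used here, so stretches are given by Rn5 position without gene names, and the labelled tissue could not be checked against its marker genes. It was checked against the other libraries instead, by the Jaccard index of occupied 1 kb windows (windows occupied in both libraries divided by those in either). Lists were first cut to at most their 27292 best-scoring peaks, and shorter lists, down to 19378 peaks, stayed whole. The most similar of 93 libraries to FT replicate 1 was FT replicate 2 of the same region at 0.771, followed by both FT libraries of the lateral septum (LS) at 0.755 and 0.738. Sham replicate 2 was likewise most similar to Sham replicate 1 at 0.606. Sham replicate 1, however, was more similar to Sham replicate 2 of the ventromedial hypothalamus (VMH) at 0.636 and to Sham replicate 1 of LS at 0.616. From FT replicate 1, the Sham libraries of the same nucleus came only in places 43 and 65, and from FT replicate 2 in places 40 and 63. The FT libraries of the medial septum were therefore nearer to many libraries of other regions than to the Sham libraries of their own nucleus.

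Whether fluoxetine altered the number and extent of acetylated sites was asked first. Sham replicates 1 and 2 held 27508 and 27292 peaks, and FT replicates 1 and 2 held 47277 and 46325. The groups did not overlap, and the FT mean of 46801 ± 673 peaks (SD, n = 2) was 1.71 times the Sham mean of 27400 ± 153 (SD, n = 2), a log2 ratio of 0.77. An exact permutation test of 2 against 2 libraries cannot give a two-sided p below 0.333, and this was the value for peak number. Peaks covered 40.5 and 38.1 Mb of the genome in Sham and 80.1 and 74.6 Mb in FT, a log2 ratio of 0.98 (exact permutation p = 0.333, two-sided). Across the series the Sham lists ran from 19378 to 53135 peaks with a median of 39372, and those of the medial septum were the 6th and 8th shortest of 47. The FT lists ran from 24429 to 54505 with a median of 48438, and those of the medial septum were the 9th and 15th shortest of 47. Peaks at the upper limit of the deposited −log10 p-value, 200, numbered 182 and 133 in Sham and 2032 and 2080 in FT.

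Peaks were wider in FT. The median width was 1400 and 1300 bp in Sham against 1700 and 1600 bp in FT, in lists whose widths come in steps of 100 bp. When every list was shortened to its 27292 peaks with the highest maxScore, the medians were 1400 and 1300 bp in Sham and 2000 bp in each FT library, a log2 ratio of 0.57 against 0.29 on the deposited lists. Both tests stood at the smallest possible exact permutation p of 0.333 (two-sided, n = 2 libraries per group). Peaks of at least 5 kb were few everywhere, with 3 and 2 in Sham and 24 and 17 in FT, and no list held a peak of 10 kb or more. The widest peak measured 5500 and 5900 bp in Sham and 6000 and 7300 bp in FT.

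**Figure D1:**
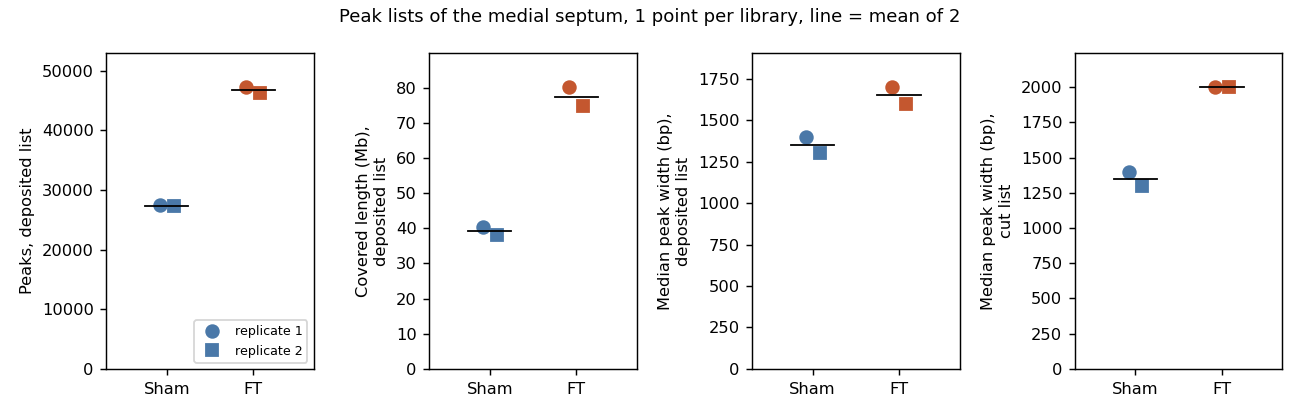
Peaks per list, covered length in Mb and median peak width in bp for the 4 medial septum libraries, with 1 point per library (circle, replicate 1; square, replicate 2) and a line at the mean of 2; all axes start at 0. The FT points lie above both Sham points in every panel, at 47277 and 46325 peaks against 27508 and 27292, and the gap in width is larger on lists cut to 27292 peaks.

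The same sites were then compared one by one. An FT replicate 1 peak overlapped exactly 1 peak of Sham replicate 1 in 24871 cases, none in 22319 and 2 or more in 87. For FT replicate 2 against Sham replicate 2 the counts were 24006, 22234 and 85. Wide FT peaks that bridge several Sham peaks were thus rare, and about as many FT peaks had no Sham counterpart as had one. In the other direction, 8.99% of Sham replicate 1 peaks overlapped no peak of FT replicate 1, and 11.5% of Sham replicate 2 peaks overlapped none of FT replicate 2.

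Among peaks matched one to one, the FT peak was the wider in 97.1% of 24856 pairs of the replicate 1 libraries and in 93.6% of 23964 pairs of the replicate 2 libraries. The median difference was 500 bp in each pair of libraries. Between the FT replicates the first was the wider in 56.3% of matched pairs, and between the Sham replicates in 52.3%, both with a median difference of 100 bp. The broadening was seen at nearly all matched sites rather than at a subset. Of 42366 stretches covered by peaks of at least 2 lists, 20513 were touched by a peak in each of the 4 lists. In 18838 of these (91.8%) the peaks of both FT libraries were wider than those of both Sham libraries, and in 25 (0.122%) the reverse held. Both replicate 1 libraries had the wider peaks in 1.09% and both replicate 2 libraries in 0.565%. On the lists cut to equal covered length, matched FT peaks were still the wider in 98.9% and 97.3% of pairs.

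A like shift in width was seen in some other regions, with the value computed the same way in each of 21 regions with 4 libraries. Averaged over the pairs of libraries, 95.4% of matched peaks were wider in FT in the medial septum, in place 2 after the prelimbic cortex (PLC) with 96.1%. The infralimbic cortex followed with 92.7% and the accumbens core with 90.4%. In LS, the anatomical neighbour, the share was 61.9% for the replicate 1 libraries and 93.8% for the replicate 2 libraries, so that the replicates of LS differed where those of the medial septum were alike. The ventral dentate gyrus had the lowest mean share, 37.4%.

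Sites found in FT alone were mostly the weaker ones of their list. Peaks were ranked by maxScore into 4 parts of 25% each. In the weakest part of FT replicate 1, 14.3% of peaks overlapped a Sham peak of either replicate, and in the next parts 39.5% and 87.5%. The shares in FT replicate 2 were 15.6%, 41.6% and 88.5%. In the strongest part 99.99% of peaks of each FT library overlapped a Sham peak, so that the strongest FT sites were also acetylated without the drug. In the weakest part of the Sham lists, 74.4% of replicate 1 peaks and 69.9% of replicate 2 peaks overlapped an FT peak. The weakest part was found again in the other replicate of its treatment for 53.8% and 58.9% of peaks in FT, against 39.2% and 40.6% in Sham.

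Occupancy was then compared over the genome in 1 kb windows, a window being occupied when peaks covered at least 50% of it. Of 94418 windows occupied in any of the 4 deposited lists, 28865 were occupied in all 4. Both FT libraries but neither Sham library occupied 22970 windows, called higher in FT here, which is 24.3% of the windows. The reverse, higher in Sham, held for 413 windows or 0.437%. The 4 libraries can also be split 2 against 2 by replicate number, which separated 949 windows (1.01%), or crossed, which separated 1119 (1.19%). The treatment split thus separated 22.6 times as many windows as the mean of the other splits, a log2 ratio of 4.50, with p = 0.333 as the smallest value of the exact permutation test over 3 splits (one-sided). For the 6 ordered choices of 2 libraries the number higher in FT gave the smallest possible exact permutation p of 0.167 (one-sided), while for the number higher in Sham p was 0.833. The Jaccard index over deposited lists was 0.605 between the Sham replicates, 0.723 between the FT replicates and 0.416 to 0.483 between treatments.

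Shortening all lists to 27292 peaks, the length of Sham replicate 2, reduced the contrast without changing its direction. Of 70261 windows, those higher in FT numbered 10524 (15.0%) and those higher in Sham 815 (1.16%), against 1251 (1.78%) for the replicate split and 1345 (1.91%) for the crossed split. Relative to the mean of those splits, treatment gave a log2 ratio of 3.13 (exact permutation p = 0.333, one-sided). Because FT peaks are wider, lists of equal number still cover 56.5 and 54.3 Mb in FT against 40.3 and 38.1 Mb in Sham. Lists cut by maxScore to an equal covered length of 38.1 Mb held 24452 and 27292 peaks in Sham and 16896 and 17512 in FT. Windows higher in FT then numbered 4573 (8.10% of 56442) and those higher in Sham 2934 (5.20%), while the replicate and crossed splits separated 1022 (1.81%) and 1172 (2.08%). The share of separating windows that were higher in FT thus went from 98.2% on the deposited lists to 92.8% at equal number and 60.9% at equal length. The log2 ratio at equal length was 2.77 (exact permutation p = 0.333, one-sided).

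Several of these counts moved by more than 1.5 times when 1 library was left out, since a lone library then stands for its group. On deposited lists the windows higher in FT numbered 36770 without FT replicate 2, and those higher in Sham 2704 with Sham replicate 1 left out and 2313 with Sham replicate 2 left out. On lists of equal number, those higher in FT numbered 17038 without Sham replicate 1 and 16912 without FT replicate 2. Those higher in Sham numbered 4672, 3808 and 1252 without Sham replicate 1, Sham replicate 2 and FT replicate 1. Sham replicate 1, Sham replicate 2, FT replicate 1 and FT replicate 2 were left out in turn. The log2 ratio with 3 libraries was then 1.44, 1.27, 1.74 and 1.95 on deposited lists and 1.596, 1.29, 0.77 and 0.91 at equal number, so that it stayed above 0. It sets 1 library against 2 and is divided by other splits of that kind. Its size is therefore not comparable with that of the 2 against 2 ratio.

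**Figure D2:**
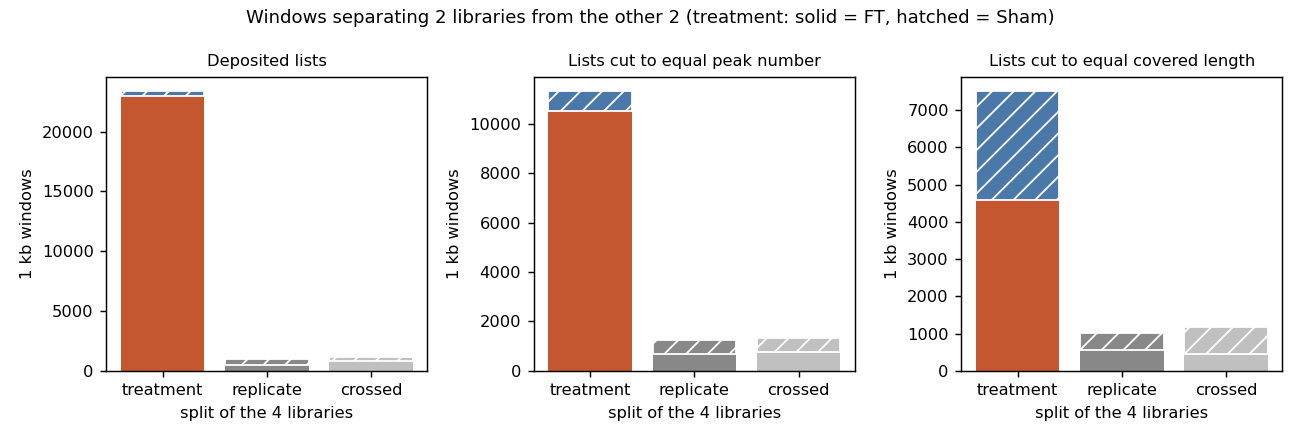
Numbers of 1 kb windows that separate 2 medial septum libraries from the other 2, for the treatment, replicate and crossed splits, on deposited lists, lists of equal peak number and lists of equal covered length; each panel has its own axis from 0. In the treatment bar, solid is higher in FT and hatched is higher in Sham, and in the grey bars solid and hatched are the directions of that split. The treatment bar is the tallest in every panel, and its hatched part grows from 413 to 815 and 2934 windows.

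Windows higher in FT and windows higher in Sham differed in how often their peaks overlapped a peak of the other treatment. On deposited lists, 59.0% of the windows higher in FT (13557) lay in FT peaks that overlapped no Sham peak of either replicate, called stand-alone here, and the rest lay in peaks that were present in Sham but narrower or shifted. At equal number the stand-alone share of windows higher in FT fell to 26.5% (2786), and at equal length to 3.19% (146). At equal length, 84.4% of them lay within 1 kb of a window occupied in all 4 libraries, so that they were nearly all margins of shared peaks. Windows higher in Sham were stand-alone in 88.4%, 96.0% and 99.2% of cases on the 3 kinds of list. On the cut lists, overlap was judged against lists of the other treatment that were cut as well. The stand-alone shares there depend on the cut in both directions, and their contrast is no result about direction. The peaks behind windows higher in Sham were narrow, with a median width of 1000, 1050 and 1150 bp, against 1600, 1950 and 2150 bp for the peaks behind windows higher in FT.

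**Figure D3:**
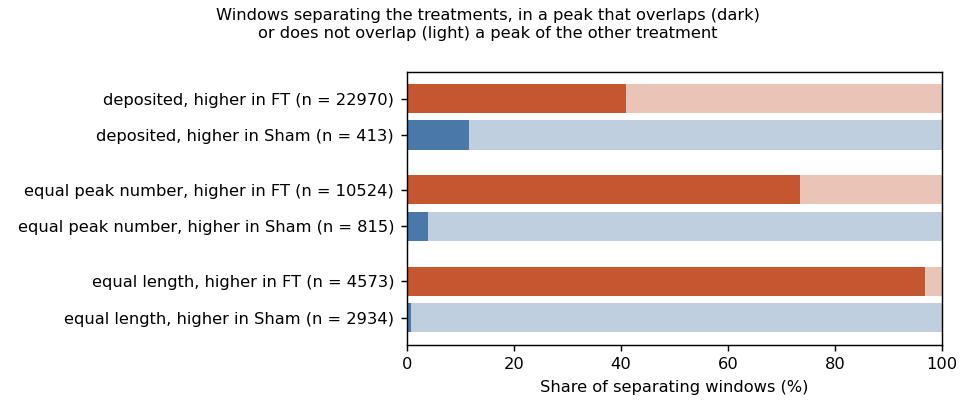
Share in % of the windows separating the treatments that lay in a peak overlapping a peak of the other treatment (dark) or in a stand-alone peak (light), for both directions of change on the 3 kinds of list. The light part of the FT bars shrinks from 59.0% to 26.5% and 3.19%, while that of the Sham bars is 88.4%, 96.0% and 99.2%. On the cut lists both treatments were cut before overlap was judged, so the shares there depend on the cut.

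Shortening the lists also made windows higher in Sham. Of the 815 windows higher in Sham at equal number, 285 (34.97%) were occupied in both deposited FT lists and 123 in 1 of them, which leaves 407 (49.9%) in neither. Of the 2934 at equal length, 2468 (84.1%) were occupied in both deposited FT lists and 313 (10.7%) in neither. Most windows higher in Sham at equal length, and 34.97% of those at equal number, thus held peaks that the deposited FT lists also had, below the cut. Of the windows higher in FT, 99.7% at equal number and 99.1% at equal length were in neither deposited Sham list. The cuts left Sham replicate 2 whole and took Sham replicate 1 from 27508 peaks to 27292 and 24452. These shares were therefore largely set by the cuts, and their contrast with those of windows higher in Sham is no result about direction.

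The position of separating windows was spread over the genome. At equal number the windows higher in FT formed 9151 runs of adjoining windows, of which 85.5% were single windows and the longest was 4 windows, with no run of 5. Their share of occupied windows ran from 13.2% on chromosomes 15 and X to 16.5% on chromosome 11. They lay in 1982 of the 2649 bins of 1 Mb that held any occupied window, with a median of 3 per bin. The bins with most of them were chr16:20000001-21000000 with 29 of 125 windows, chr19:64000001-65000000 with 24 of 118 and chr1:226000001-227000000 with 23 of 108. The windows higher in Sham formed 783 runs, of which the longest was 2 windows. A window higher in FT lay at a median of 4 kb from the nearest window occupied in all 4 libraries, and one higher in Sham at a median of 86 kb.

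The runs named here are the 5 longest in each direction at equal number, with ties broken by the Norm-tag-count rank, and their values are a description of chosen stretches. The first, chr6:153491001-153495000, held an FT peak of 3800 and 4000 bp with Norm-tag-counts of 8 and 7. Sham replicate 1 had a peak of 600 bp there with a maxScore of 47.7, near the lower end of its list, and Sham replicate 2 had none. Both chr6:46870001-46874000 and chr20:40055001-40059000 were empty in both Sham libraries on deposited lists. Their FT peaks were 3300 and 3700 bp wide in the former, with tag counts of 7 and 5, and 3500 and 3200 bp wide in the latter, with tag counts of 6 and 5. All 4 windows of each of these 3 runs were occupied in a Sham library of another region, in 6 to 20, 10 to 20 and 7 to 19 of 24 regions.

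The other runs higher in FT were margins of peaks that Sham shared. At chr15:58997001-59000000 the peak was 1700 bp wide in each Sham library and 3900 and 4100 bp wide in FT, with tag counts of 8 and 7 in Sham and 12 and 9 in FT. At chr17:8140001-8143000 the widths were 1700 and 1900 bp in Sham and 4600 and 4500 bp in FT, with tag counts of 4 and 5 against 10 and 8. Here the acetylated zone was more than 2 kb longer in both FT libraries.

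Of the runs higher in Sham, chr9:49151001-49153000 was of another kind. It held Sham peaks of 2000 and 2100 bp with tag counts of 7 and 8, and FT peaks of 1100 and 1000 bp with tag counts of 14 and 11. The FT peaks were therefore narrower but carried the higher tag counts, and each peak ranked above 92% of its list. At chr5:150145001-150147000 a peak of 1700 bp with a tag count of 3 was present in both Sham libraries and in neither deposited FT list. The remaining 3, chr2:203901001-203903000, chr4:66704001-66706000 and chr8:13800001-13802000, were occupied on deposited lists in all 4 libraries with tag counts of 3 or 4, and separated the groups only because the FT peaks fell below the 27292 best-scoring ones.

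Strength was compared at the 20513 stretches touched by a peak in every list. The median maxScore there was 96.0 and 93.8 in Sham and 234 and 179 in FT, and the median Norm-tag-count was 4 in each Sham library and 7 and 6 in FT. Both scores depend on the library, so percentile ranks were compared instead. Ranked within its whole list, a stretch stood at least 20 percentile points higher in FT without overlap of the groups in 6250 cases (30.5%), and higher in Sham in 30 (0.146%). The replicate split gave 336 and the crossed split 570. The median difference over all shared stretches was 12.2 points, in FT lists that held more peaks outside the shared stretches. Ranked by maxScore within its list, 6626 stretches (32.3%) stood higher in FT and 31 (0.151%) in Sham. With replicate numbers as a block, which asks for 20 points within each pair of same-numbered libraries, 2484 stood higher in FT and 2 in Sham. The median Norm-tag-count percentile of shared stretches was 58.8 and 62.3 in Sham and 76.2 and 77.8 in FT. The FT lists were longer, mostly by weaker peaks, and such peaks raise the rank of shared stretches by themselves. No direction is therefore read from these whole-list counts, nor from their excess over the other splits.

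Ranking the shared stretches only among themselves, an alternative chosen after seeing the data, put all libraries on 1 scale. The number higher in FT was then 621 (3.03%) and the number higher in Sham 680 (3.31%), with 552 for the replicate split and 484 for the crossed split, and the median difference was 0.19 points. With the replicate block the counts were 216 and 210. By maxScore in place of Norm-tag-count they were 820 (4%) and 907 (4.42%), against 648 and 616 for the other splits. Ranking the same stretches among themselves gives each library the same spread of ranks, so a median difference near 0 and similar counts in both directions follow from this scaling and are no result about direction. Shared stretches that ranked higher in FT had a median width of 2187 bp and those higher in Sham 1724 bp, against 2000 bp over all shared stretches.

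The stretches with the largest shifts of Norm-tag-count rank, chosen by that shift, had small counts. At chr1:233930066-233932352 the count was 3 in each Sham library and 8 and 7 in FT, and the percentile within the list was 26.2 and 27.7 against 82.4 and 84.7. At chr2:267440609-267442908 it was 3 in each Sham library and 8 and 6 in FT. Both were also among the 3 largest shifts when shared stretches were ranked among themselves, together with chr11:75210370-75213294 with 4 and 3 in Sham and 10 and 9 in FT. At chr6:133516036-133517735 the count was 3 and 2 in Sham and 7 and 5 in FT. The largest shifts towards Sham rested on 1 count or on none. At chr15:52743507-52744806 the count was 4 in each Sham library and 4 and 3 in FT, at chr16:19084479-19086602 it was 5 and 4 against 5 and 3, and at chr10:107649420-107650706 it was 3 and 4 against 3 in each FT library. The maxScore, which depends on the library, was higher in FT at the chr15 stretch, with 149.8 and 92.5 against 51.3 and 51.2. It was also higher in FT at the chr10 stretch, with 112.5 and 91.6 against 87.9 and 52.3. At the chr16 stretch it was 154.5 and 60.4 in Sham and 114.2 and 65.7 in FT. A count of 3 stood at percentile 26.2 in Sham replicate 1 and at 9.30 in FT replicate 1, so an equal count gave unequal ranks.

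The separating windows were nearly all active elsewhere in the brain without the drug. A window was called active in another region when at least 1 Sham library of that region occupied it on its deposited list. Of the 22970 windows higher in FT on deposited lists, 22777 (99.2%) were active in at least 1 of 24 other regions, 15108 (65.8%) in at least 10 and 2929 (12.8%) in at least 20, with a median of 12 regions. At equal number, 10498 of 10524 (99.8%) were active in at least 1 region, 76.3% in at least 10, and the median was 14. At equal length it was 4565 of 4573, again with a median of 14. Of all windows occupied in any medial septum library on deposited lists, 96.6% were active in at least 1 other region, 67.1% in at least 10 and 35.9% in at least 20, with a median of 15. At equal number these were 97.6%, 79.2% and 47.5% with a median of 19, and the share of windows higher in FT in at least 20 regions was 19.8%. Windows higher in FT were thus near this background for at least 1 and at least 10 regions and below it for at least 20. Windows occupied in all 4 libraries were active in a median of 23 regions, and those of the replicate and crossed splits in 15 and 14 at equal number. Counting FT libraries of other regions too, 18 of the 22970 windows on deposited lists and 3 of the 10524 at equal number were found nowhere else.

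For windows higher in Sham the number of regions depended on the kind of list, with a lower median than for windows higher in FT on deposited lists and at equal number and a higher one at equal length. On deposited lists 378 of 413 (91.5%) were active in at least 1 region, with a median of 6, and 33 were found in no other region under either treatment. At equal number it was 781 of 815 (95.8%) with a median of 11, and at equal length 2919 of 2934 (99.5%) with a median of 19, against 14 for windows higher in FT. Over all occupied windows the medians were 15 on deposited lists, 19 at equal number and 21 at equal length, where 97.8% were active in at least 1 region. The medians of windows higher in Sham thus lay below this background on each kind of list. The Sham library of the habenula (HB), whose list stands apart from all others of the series, held 119 of the 413 windows (28.8%), against 33 of the 22970 windows higher in FT (0.144%) and 113 of the 28865 occupied in all 4 libraries (0.391%). Of all windows of the Sham libraries, 1.33% and 1.10% lay in that list, and of those of the FT libraries 0.248% and 0.295%. Outside it, 294 windows higher in Sham remained. The part of whatever sets the HB list apart in these windows was not tested.

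**Figure D4:**
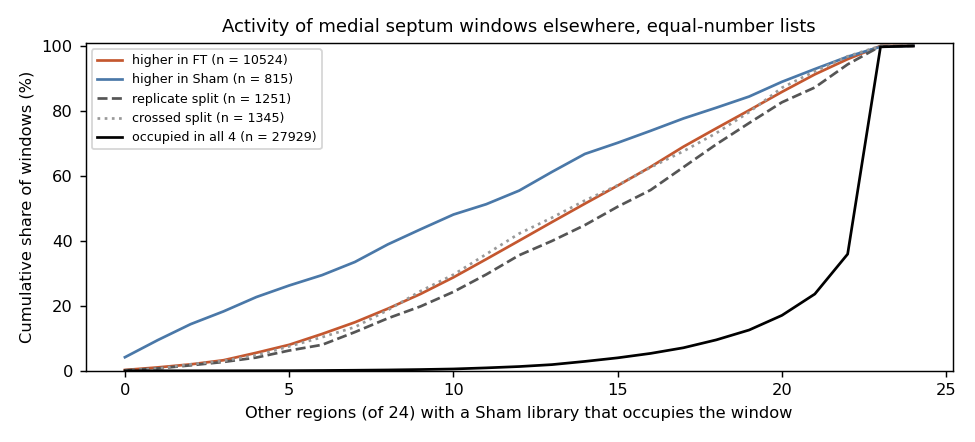
Cumulative share in % of medial septum windows, on lists of equal peak number, against the number of other regions (of 24) with at least 1 Sham library that occupies the window, for 5 classes of window. The curve for windows higher in FT runs beside those of the replicate and crossed splits, that for windows higher in Sham lies above them at low numbers of regions, and windows occupied in all 4 libraries have a median of 23 regions.

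Among single regions, windows higher in FT at equal number were most often active in the lateral hypothalamus (LH, 83.8%), the raphe (77.3%) and the solitary tract nucleus (Snt, 76.7%). The shares there were higher for the replicate split (89.1%, 81.5% and 82.8%) and the crossed split (87.1%, 80.1% and 80%), so this order is not particular to windows higher in FT. Apart from HB, windows higher in FT were least often active in PLC (27.1%), against 34.2% and 31.0% for those splits. In LS the share was 71.4%, against 78.9% of all occupied windows, but it rested on 1 library. Sham replicate 1 of LS, with 67529 occupied windows, held 68.4% of the windows higher in FT, and Sham replicate 2, with 37172, held 20.9%. Sham replicate 1 of LH alone held 82.3%, nearly as much as the FT library with the most, replicate 1 of the bed nucleus (BNST), with 84.6%. In VMH, Sham replicates 1 and 2 held 73.1% and 24.9% with 71548 and 40527 occupied windows. Within LS and VMH the shorter Sham list held the lower share. Short Sham lists of other regions also held low shares, with 5.64% in replicate 2 of PLC (20231 occupied windows) and 5.83% in that of the infralimbic cortex (20809). Long lists differed among themselves. Sham replicate 2 of the insular cortex, with 84828 occupied windows, held 59.0%, and FT replicate 2 of the dorsal dentate gyrus, with 85672, held 60.4%. How far list length or region set these shares was not tested.

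Windows higher in Sham at equal number were most often found in Sham replicate 1 of LS (53.0%), in Sham replicate 2 of VMH (51.9%) and in Sham replicate 1 of LH (49.7%). The short VMH list was in place 2 of 90 libraries for these windows and in place 82 for windows higher in FT. It is also the library most similar to Sham replicate 1 of the medial septum, as given above. Whether these libraries share a feature besides their length was not tested.

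**Figure D5:**
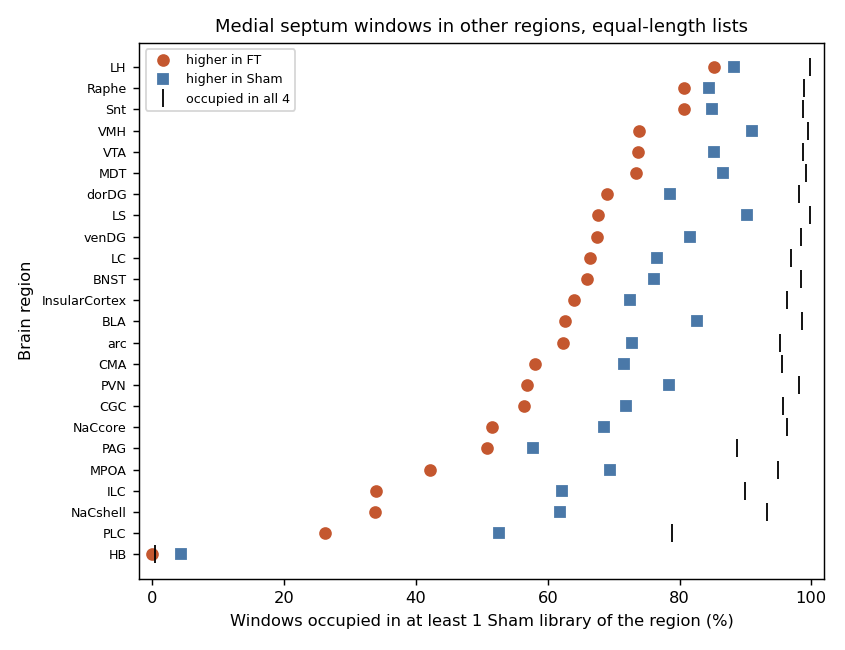
Share in % of medial septum windows, on lists of equal covered length, that at least 1 Sham library of each of 24 other regions occupies, for windows higher in FT (circles), higher in Sham (squares) and occupied in all 4 libraries (bars). LH is at the top with 85.2% of windows higher in FT, and in every region the square lies to the right of the circle. Of these windows higher in Sham, 84.1% were occupied in both deposited FT lists. At equal number the order turned, with 83.8% of windows higher in FT and 52.4% of those higher in Sham in LH. The exceptions there were HB, PLC, the infralimbic cortex, the medial preoptic area and the accumbens shell.

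Compared with the other regions that had 4 libraries, the contrast in the medial septum was among the largest. With each region's lists cut to the shortest of its own 4, its log2 ratio of 3.13 was in place 2 of 21, after PLC with 3.15. At equal covered length its ratio of 2.77 was in place 1, before PLC with 2.58 and the basolateral amygdala with 2.01. Its number of windows higher in FT was in place 1 of 21 in both cases. In LS the ratio was 0.96 at equal number and 0.82 at equal length, where windows higher in FT numbered 1776 and those higher in Sham 1050, against 1889 for the replicate split. At equal number LS had 3846 windows higher in FT and 2551 for the replicate split. These places are a description, since the medial septum was not compared with other regions by a test.

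Windows that separated the treatments in the medial septum were compared with those of the other regions with 4 libraries. Within each treatment these regions drew on a common set of animals. At equal number, 3205 of 10524 (30.5%) were higher in FT in none of the 20 other regions, 3168 in 1 and 4151 in at least 2. At least 1 other region was thus higher in FT for 69.5% of them, against 38.0% of all occupied windows, 44.4% of the windows of the replicate split and 48.6% of those of the crossed split. At least 2 other regions were higher in FT for 39.4% of them, against 16.2% of all occupied windows. For the replicate and crossed splits this share was 16.3% and 20.4%. The windows higher in FT were so in at most 10 regions, with 357 in at least 5, for which no background is given here. In some region 1249 of them (11.9%) were higher in Sham, against 12.01% of all occupied windows. Of the 815 windows higher in Sham, 580 (71.2%) were so in no other region and 107 in at least 2. Another region was higher in Sham for 28.8% of them, against 12.01% of all occupied windows, 23.3% for the replicate split and 21.6% for the crossed split. At equal length the share higher in FT in another region was 68.5% for windows higher in FT. It was 24.6% for all occupied windows, 35.3% for the replicate split and 34.6% for the crossed split. The share higher in Sham was 53.7% for windows higher in Sham, against 23.96%, 35.3% and 35.8% in the same order.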

How the data were processed

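H3K27ac peak lists of 94 libraries were analysed, 4 of them from the medial septum. The authors aligned reads to Rn5 (Ensembl), with BWA per the submitters' processing notes, and called peaks with DFilter in each library separately. The sources used here name no versions. The study also normalised read counts for depth and GC content, but these are not in the lists, and its read-based test of peaks could not be run on them. In the deposited lists the −log10 p-value ran from 4 to 200 in the medial septum. The maxScore and the Norm-tag-count were deposited as scores, the latter as whole numbers, and the false discovery rate as a percent, which was 0 for every peak. The scores depend on the library and were used as ranks within a list, or as printed values.

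Windows of 1 kb, covered by at least 50%, gave occupancy. Lists were cut by maxScore, with ties by Norm-tag-count and then position, to 27292 peaks or to 38.1 Mb of covered length. Coordinates count from 1 on Rn5, with deposited starts read as counting from 0. Chromosomes 1 to 20 and X were used. Group means were compared by exact permutation of the 4 libraries, and separating windows by treatment, by replicate number and crossed. Both groups have 2 libraries, and p-values describe these pools of animals. Counting intervals were not computed, since the depth is unknown and lists hold no counts. The scripts used Python 3.11.15, numpy 2.4.6, pandas 2.3.3 and scipy 1.17.1, and recovered the answers set in simulated lists.

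The study's methods state that same-numbered FT and Sham libraries were handled side by side, so the replicate numbers pair FT with Sham. The exact permutations did not keep this pairing, and the replicate split also separates libraries that were handled together from the others. Over windows, the difference between replicates in Sham correlated with that in FT at -0.014 on deposited lists, -0.010 at equal number and -0.012 at equal length. The stretches named are the 5 longest runs of separating windows per direction at equal number, the 3 largest rank shifts per direction and the 3 bins with most windows higher in FT. The medial septum, the comparisons and the naming rule were chosen with earlier results of these data known. Alternatives were a −log10 p-value of at least 6, other window rules, other cuts and ranks, the replicate block and leaving out each library.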

Additional observations from a re-analysis of the deposited data

How the results depend on the processing

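Each FT-to-Sham log2 ratio and each split log2 ratio stayed above 0 under every alternative run for it. Median width had a log2 ratio of 0.17 at a −log10 p-value of at least 6 and 0.57 at equal number, against 0.29. Leaving out 1 library gave split log2 ratios of 1.27 to 1.95 on deposited lists and of 0.77 to 1.596 at equal number. These set 1 library against 2, so their size is not comparable with the 4.50 and 3.13 of the 2 against 2 splits. Windows higher in FT on deposited lists numbered 35706 when any overlap occupied a window, 11680 from peak centres and 1258 in 5 kb windows, and 27836 to 36770 with 1 library left out. Windows higher in Sham numbered 66 at a −log10 p-value of at least 6, 876 with any overlap, 1056 from centres and 0 in 5 kb windows, and 518 to 2704 with 1 library left out. At equal number, those higher in FT were 2823 with 10000 peaks, 4573 at equal length, 2522 from centres and 1173 in 5 kb windows (13793 to 17038 with 1 library left out). Those higher in Sham were 2934 at equal length, 1507 from centres and 1 in 5 kb windows (1152 to 4672 with 1 library left out). From centres at equal number the split log2 ratio was 1.15. The stand-alone share of windows higher in FT was 26.5% at equal number and 63.0% to 63.5% with 1 library left out. Their share active elsewhere was 89.4% when every Sham library of a region had to occupy the window, 95.2% with the other lists cut to at most the same number, 65.8% for at least 10 regions, 99.8% at equal number and 96.7% to 99.4% with 1 library left out. Shifts of at least 10 points in whole lists numbered 11064 in FT and 273 in Sham. No direction is read from whole-list counts, since the FT lists were longer. Ranked among shared stretches, shifts of at least 20 points were 621 and 680 by tag count and 820 and 907 by maxScore. Similar counts in both directions follow from that scaling, so no direction is read from them. With the replicate block they were 2484 and 2 in whole lists and 216 and 210 among shared stretches. For separating windows the block selects the same windows as the main rule, so those counts could not change and say nothing about pairing. With 1 library left out, shifts of at least 20 points in whole lists numbered 4660 to 7217 in FT and 20 to 148 in Sham. The cause of these moves was not tested. Window counts scale with how a window is occupied, the depth of these libraries is unknown, and with 2 libraries per group the exact permutation test cannot reach 0.05.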

Other observations

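The X chromosome held 2.74% and 2.80% of the peaks in the Sham lists of the medial septum and 2.46% and 2.43% in the FT lists. Windows higher in Sham on deposited lists lay on X in 6.05% of cases and those higher in FT in 2.27%, with 3.27% and 3.396% for the replicate and crossed splits. At equal number the shares were 3.56% and 2.38%, and at equal length the order turned, with 2.45% for windows higher in Sham and 2.60% for those higher in FT. On chromosomes 1 and 2 the windows higher in Sham made up 0.719% and 0.797% of occupied windows, against 0.437% over all chromosomes.

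Sham replicate 2 of LS held 46.2% of the windows higher in Sham at equal covered length and Sham replicate 2 of VMH 59.3%, while replicate 1 of each held 87.7% and 84.2%. Windows higher in Sham had a median Norm-tag-count percentile of 3.88 on deposited lists, 15.9 at equal number and 24.8 at equal length, against 39.2, 37.0 and 43.4 for windows higher in FT and 72.1, 68.3 and 66.7 for windows occupied in all 4 libraries.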
